A study of Homo sapiens with 6 samples.

Results

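MHC class II molecules are heterodimers of an alpha and a beta chain that display peptides from endosomes to CD4+ T cells. CD74, the invariant chain, occupies the groove of a new heterodimer and leads it to the endosome, where HLA-DM helps to exchange the remaining CD74 fragment for antigenic peptide. CIITA is the coactivator that sets how strongly these genes are transcribed, through the RFX, NF-Y and CREB factors bound at the conserved X and Y boxes of their promoters, and promyelocytes are not known for a strong class II program.

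The expression of 10 genes of this pathway, chosen by name among 52992 genes with a matched transcript, was examined in NB4, a widely used cell line from acute promyelocytic leukemia. The 10 were the classical chains HLA-DRA, HLA-DRB1, HLA-DPA1, HLA-DPB1, HLA-DQA1 and HLA-DQB1, the HLA-DM chains HLA-DMA and HLA-DMB, the invariant chain CD74, and the regulator CIITA. RNA-sequencing was performed on cells that stably expressed Cas9 and carried a lentiviral sgRNA under doxycycline control, directed against lacZ of Escherichia coli (LacZ, genotype label WT) or against ARID1A (sg1 and sg5, genotype label ARID1A-deficient). ARID1A is a DNA-binding part of the BAF complex, which moves nucleosomes. All 3 groups, with 2 replicates each, received doxycycline at 1 µg/ml for 7 days and were then grown without it before RNA isolation. The cells were sorted for the reporters of both vectors, so that each group was a transduced population. Nothing in the labels says whether replicates came from separate cultures, so that p-values measure the spread between these samples, which may be technical. In bulk RNA, more cells that express a gene and more mRNA per cell cannot be told apart.

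The depth was alike, with 46131178 to 54843745 estimated counts per sample. ARID1A itself, the targeted gene, had 155 and 191 CPM (counts scaled to equal library size) for LacZ, 211 and 191 for sg1, and 124 and 145 for sg5. Its log2 fold change against LacZ was 0.22 for sg1 and -0.36 for sg5, and edgeR gave adjusted p-values of 0.993 and 0.661, so that its mRNA does not check the labels. Transcripts of the promyelocyte genes MPO, PRTN3, AZU1 and CTSG were abundant in every sample, with MPO at 5991 to 7769 TPM (transcript level scaled by length and depth), while ELANE had 1 to 9 counts. On the first principal component, which held 34.4% of the variance, sg1 replicate 1 and sg5 replicate 2 stood apart at 34.3 and 46.8, and the other 4 samples lay between -30.3 and -11.3.

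The promoters are shown first because they carry the sequence by which the pathway is known to be regulated together. Of the 10 genes, 8 had promoter windows in RefSeq (GRCh38.p14, 9 windows), and HLA-DRA and CIITA had none. The 250 bases before the start of each were searched on both strands for the core of the X box (ACNGATG) and of the Y box (CCAAT, or ATTGG on the other strand), which do not overlap each other. The X box core was found in 5 of the 9 windows and in 6.35% of all 35116 windows, and the Y box core in 7 of 9 and in 32.0% of all. An X box core followed by a Y box core within 60 bases was found in 4 of 9 windows and in 0.601% of all. The 4 stretches are printed 5′ to 3′ on the minus strand, on which all 4 genes are transcribed, with both cores in capitals, and that of CD74 (minus strand) with its Y box core in capitals.
HLA-DRB1: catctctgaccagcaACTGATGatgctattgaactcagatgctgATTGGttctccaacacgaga
HLA-DQB1: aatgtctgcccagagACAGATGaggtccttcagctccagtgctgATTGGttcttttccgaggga
HLA-DMA: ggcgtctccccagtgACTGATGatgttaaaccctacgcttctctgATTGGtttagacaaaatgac
HLA-DMB: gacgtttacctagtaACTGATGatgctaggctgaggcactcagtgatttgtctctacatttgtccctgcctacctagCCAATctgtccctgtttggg
CD74: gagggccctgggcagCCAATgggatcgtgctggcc

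These stretches lie at chr6:32589875-32589938 (HLA-DRB1), chr6:32666726-32666789 (HLA-DQB1), chr6:32953157-32953221 (HLA-DMA), chr6:32941031-32941127 (HLA-DMB) and chr5:150412944-150412978 (CD74). The cores were 22 bases apart in HLA-DRB1 and HLA-DQB1, 23 in HLA-DMA and 55 in HLA-DMB, where the Y box core stood on the other strand. CD74 held both cores too, but farther apart than 60 bases, with the X box core 209 bases before the start. The X2 box core TGACG was in 5 of 9 windows and in 21.2% of all. Among the 5 genes with both cores, CD74 had a mean of 31.6 TPM, HLA-DRB1 and HLA-DMA were near 2 TPM, and HLA-DQB1 and HLA-DMB were below 1 TPM. A match of letters is a description of the window and not evidence of a bound factor.

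Absolute levels separated CD74 from the other 9 genes. CD74 had a mean of 31.6 TPM over the 6 samples (15.01 to 52.3), and from 66.25% to 85.81% of protein-coding genes lay below it. HLA-DRB1 followed at 2.05 TPM (1.55 to 2.80), HLA-DMA at 1.83 (1.48 to 2.19), CIITA at 1.77 (1.32 to 2.05) and HLA-DRA at 1.46 (0.0668 to 2.83). The remaining 5 had means of 0.289 TPM (HLA-DPB1), 0.265 (HLA-DQA1), 0.232 (HLA-DMB), 0.204 (HLA-DQB1) and 0.146 (HLA-DPA1). The ranges of neighbours in this order overlapped everywhere except between CD74 and HLA-DRB1. The place of CIITA is that of the gene sum, and its protein-coding transcript CIITA-201 had only 0.169 to 0.485 TPM. CIITA-210, annotated as a processed transcript, had 0.813 to 1.004 TPM, so that the sum overstates the mRNA for the regulator. TPM is scaled by effective transcript length, so that it allows comparison between genes, whereas the counts behind it set its precision. HLA genes are polymorphic, and how many reads of the NB4 alleles went uncounted for differing from the reference was not measured.

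**Figure D1:**
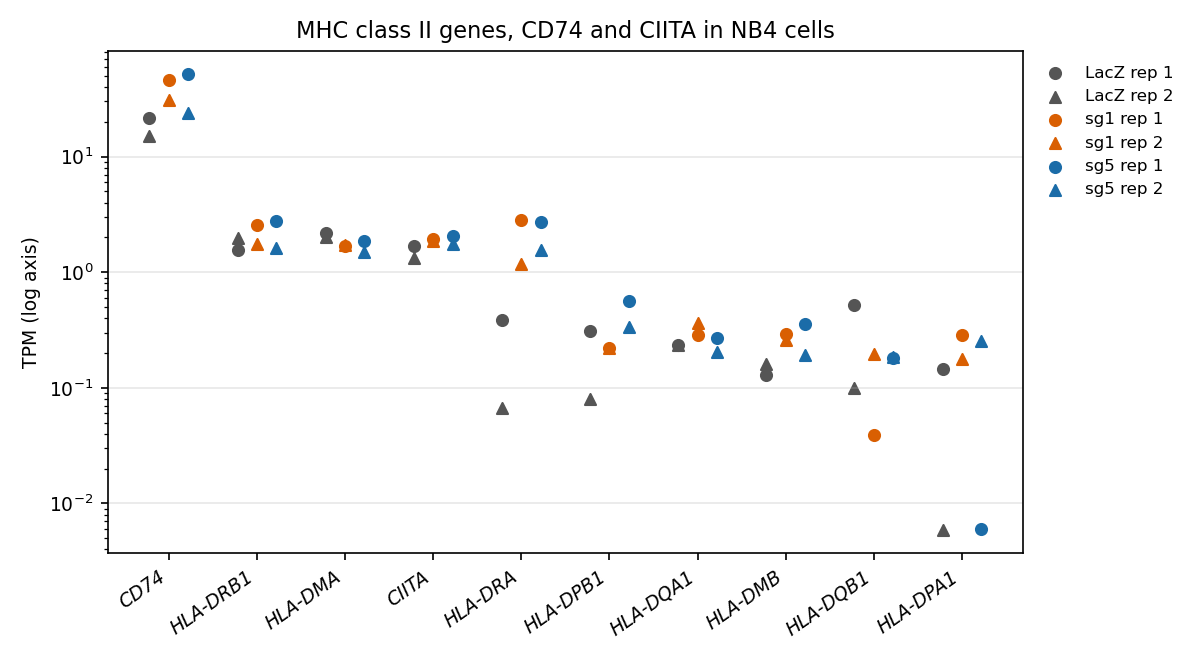
TPM of each gene on a log axis, in order of the mean over 6 samples, with LacZ in grey, sg1 in orange, sg5 in blue, circles for replicate 1 and triangles for replicate 2. CD74 lies at 15.01 TPM or above in every sample, and HLA-DRA is the gene at which both LacZ samples (0.386 and 0.0668) lie well below the 4 ARID1A-deficient samples (1.18 to 2.83).

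HLA-DRA was the classical gene with the widest separation between the groups. It encodes the invariant alpha chain of HLA-DR and lies at chr6:32439842-32445046 on the plus strand. It had 16 and 3 estimated counts for LacZ, 131 and 47 for sg1, and 115 and 73 for sg5. All 4 ARID1A-deficient samples lay above both LacZ samples, and replicate 1 lay above replicate 2 in each group. The exact 95% Poisson interval of the 3 counts in LacZ replicate 2 ran from 0.619 to 8.77, that of the 16 in replicate 1 from 9.15 to 26.0, and that of the lowest ARID1A-deficient sample (47) from 34.5 to 62.5. Such intervals cover counting error only. The log2 fold change was 3.30 (SE 0.69) in sg1 and 3.39 (SE 0.69) in sg5, which is 9.87-fold and 10.5-fold.

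By edgeR these differences did not pass the false discovery rate (FDR) of 0.1, with adjusted p-values of 0.410 in sg1 and 0.286 in sg5 (unadjusted 0.0012 and 0.0010). When sg1 and sg5 were joined against LacZ, the change was 3.35 (SE 0.64, adjusted p = 0.170). With DESeq2, which the submitters' processing notes name, HLA-DRA passed in sg1 (3.33, adjusted p = 0.00096), in sg5 (3.42, 0.0004) and joined (3.37, 2.89e-05). Over all settings the adjusted p of the joined comparison ran from 9.78e-14 to 0.930, and the largest was found without LacZ replicate 2. The size rested on the LacZ samples and on the scale, with a joined change of 4.93 without LacZ replicate 1 and 2.63 without LacZ replicate 2. With limma it was 2.85 on log2(TPM + 0.1) and 1.30 on log2(TPM + 1), where the added value understates changes of low genes. Without sg1 replicate 1 and sg5 replicate 2, the 2 samples that stood apart, the changes were 2.51 in sg1 and 3.72 in sg5. All counts of HLA-DRA fell on the protein-coding transcript HLA-DRA-202, except the 16 of LacZ replicate 1, which were assigned to HLA-DRA-201, a protein-coding transcript of the same gene.

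HLA-DRB1, the polymorphic beta chain that pairs with HLA-DRA (chr6:32578769-32589848, minus strand), was not separated between the groups. It had 68 and 85 counts for LacZ, 114 and 67 for sg1, and 112 and 73 for sg5. The groups overlapped, and replicate 1 was the higher sample in sg1 and sg5 and the lower in LacZ. Its log2 fold changes were 0.34 (SE 0.35) and 0.36 (SE 0.35), with adjusted p-values of 0.993 and 0.796 by edgeR. HLA-DRB genes share much sequence, and HLA-DRB5 had 1 to 5 counts per sample, so that the division of reads among them is uncertain. With all matched HLA-DRB genes summed the changes were 0.37 and 0.40.

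The remaining classical chains were near the limit of detection. HLA-DPA1 (chr6:33064569-33080775, minus strand) and HLA-DPB1 (chr6:33075926-33087201, plus strand) overlap on opposite strands, so that their reads may not be told apart where strand was not used in counting, which is not given in the sources used here. HLA-DPA1 had 6.69 and 1.17 estimated counts for LacZ, 14.8 and 7.33 for sg1, and 1.11 and 7.97 for sg5, and HLA-DPB1 had 10 and 2, 9 and 5, and 16 and 13. LacZ overlapped sg5 but not sg1 for HLA-DPA1, and sg1 but not sg5 for HLA-DPB1. HLA-DPB1 had fitted changes of 0.33 (SE 0.79) for sg1 and 1.35 (SE 0.74) for sg5 (adjusted p = 0.993 and 0.699 by edgeR). HLA-DPA1 and HLA-DQB1 (chr6:32659467-32668383, minus strand, 1 to 4 counts per sample) were removed by the filter on low counts and not tested.

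HLA-DQA1, the alpha chain of HLA-DQ (chr6:32628179-32647062, plus strand), had 26.0 to 45.3 estimated counts per sample. Nearly all of them belonged to HLA-DQA1-205, annotated as a retained intron, with 35.8 and 35.1 counts for LacZ, 32.0 and 23.0 for sg1, and 24.0 and 45.3 for sg5. The protein-coding transcript HLA-DQA1-204 had 0 to 3 counts, so that the level of HLA-DQA1 is hardly one of mRNA for the chain. The fitted changes were -0.17 (SE 0.37) and 0.03 (SE 0.36), with adjusted p-values of 0.993 and 0.987.

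Levels per length also give the make-up of the classical mRNAs. The 6 classical genes summed to 3.15 and 2.47 TPM for LacZ, 6.24 and 3.90 for sg1, and 6.57 and 4.17 for sg5. HLA-DRA made up 12.3% and 2.70% of that sum in LacZ and 30.3% to 45.3% in the ARID1A-deficient samples. HLA-DRB1 made up 49.2% and 80.3% in LacZ and 39.2% to 45.2% in the ARID1A-deficient samples. These shares were not tested, and each rests on the counts given above.

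**Figure D2:**
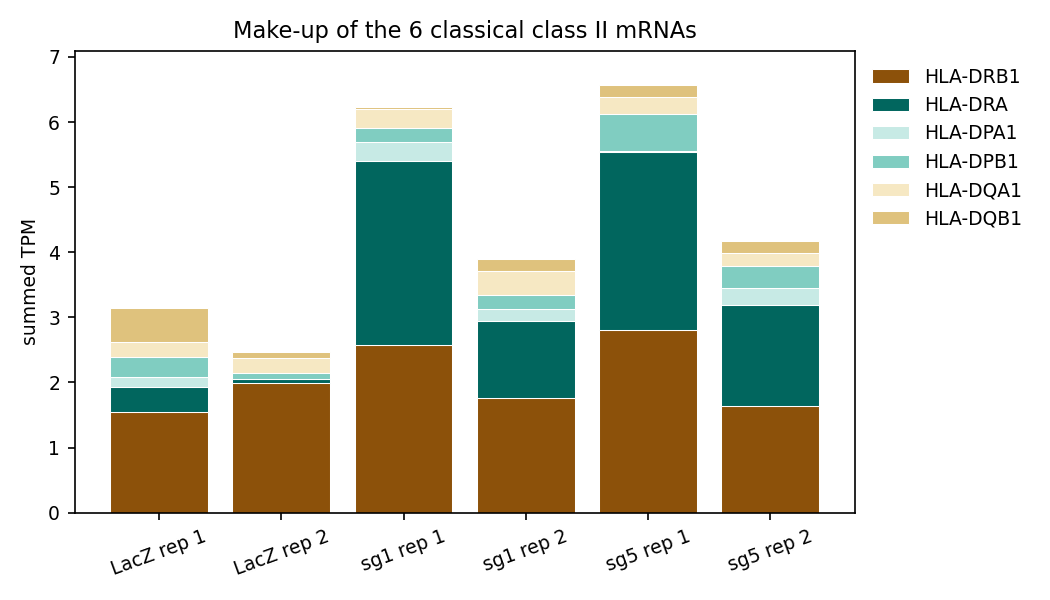
Summed TPM of the 6 classical class II genes per sample, stacked by gene, on a linear axis from 0. The HLA-DRA block is thin in LacZ (12.3% and 2.70% of the sum) and takes 30.3% to 45.3% in sg1 and sg5, while the HLA-DRB1 block at the base keeps to 1.55 to 2.80 TPM.

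The HLA-DM chains, which edit the peptides bound by class II molecules, gave different values. HLA-DMA (chr6:32948613-32969094, minus strand) had 2.19 and 2.003 TPM for LacZ, 1.67 and 1.73 for sg1, and 1.87 and 1.48 for sg5. All 4 ARID1A-deficient samples lay below both LacZ samples in TPM, but the groups overlapped in CPM (1.39 and 1.33 in LacZ against 1.07 to 1.44). Its fitted changes were -0.12 (SE 0.30) for sg1 and -0.12 (SE 0.30) for sg5, and edgeR gave adjusted p-values of 0.993 and 0.932. The largest share of HLA-DMA counts, 19.6 to 35.4 per sample, lay on the retained-intron transcript HLA-DMA-208, which overlaps AL645941.2 on the same strand. The protein-coding HLA-DMA-201 had 0 and 0.737 counts for LacZ, 3.01 and 12.9 for sg1, and 17.8 and 17.1 for sg5, with no overlap between LacZ and the others. HLA-DMA-203, also protein-coding, went the other way, with 9.65 and 8.70 for LacZ, 5.97 and 0 for sg1, and 8.54 and 0 for sg5. The division of so few reads among overlapping transcripts is uncertain. With protein-coding transcripts alone the gene's change was -0.025 for sg1, 0.34 for sg5 and 0.16 joined (adjusted p = 0.999, 0.849 and 0.929 by edgeR).

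HLA-DMB (chr6:32934629-32941070, minus strand) had 3.70 and 15.1 estimated counts for LacZ, 20.5 and 17.5 for sg1, and 23.0 and 15.9 for sg5. All 4 ARID1A-deficient samples lay above both LacZ samples, by a margin of less than 1 count at the closest pair. The fitted changes were 1.13 (SE 0.63) and 1.11 (SE 0.63), with adjusted p-values of 0.993 and 0.706. The joined change ran from 0.45 without LacZ replicate 1 to 2.38 without LacZ replicate 2, so that 1 control sample set much of its size. The protein-coding HLA-DMB-258 had 0 and 0 counts for LacZ, 7.24 and 3.34 for sg1, and 10.1 and 7.53 for sg5. HLA-DMB-259, also protein-coding, had 2.14 and 0 for LacZ and at most 0.124 in the other groups. All other counts lay on transcripts annotated as retained introns. With protein-coding transcripts alone HLA-DMB was not tested. HLA-DMB also overlaps AL645941.2 on the same strand, and the part of this overlap in either value was not tested.

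CD74 (chr5:150401637-150412929, minus strand), the most abundant gene of the 10, was higher in every ARID1A-deficient sample than in LacZ. It had 1010 and 689 estimated counts for LacZ, 2282 and 1312 for sg1, and 2315 and 1192 for sg5, or 21.5 and 15.01, 45.7 and 31.2, and 52.3 and 23.9 TPM. As for HLA-DRA, replicate 1 exceeded replicate 2 in each group, by 1.43 times in LacZ, 1.47 in sg1 and 2.19 in sg5 on the TPM scale. The log2 fold change was 1.18 (SE 0.40) for sg1 and 1.15 (SE 0.40) for sg5, or 2.27-fold and 2.22-fold, and edgeR gave adjusted p-values of 0.993 and 0.649. It was 1.17 (SE 0.36, adjusted p = 0.539) in the joined comparison, and with DESeq2 it did not pass either (1.17, adjusted p = 0.291). The adjusted p over all settings ran from 4.81e-20 to 1.00 in that comparison. The sg5 change was 0.54 without sg5 replicate 1 and 1.58 without sg5 replicate 2.

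The groups did not overlap on CD74-202, the transcript that held most CD74 counts. CD74-202, a protein-coding transcript, had 732 and 520 counts for LacZ, 1862 and 1007 for sg1, and 1771 and 939 for sg5. CD74-203, also protein-coding, had 231 and 107, 346 and 195, and 429 and 183, and its groups overlapped. CD74 exceeded the summed classical TPM by 5.74 to 7.99 times in all 6 samples, with 6.84 and 6.07 in LacZ. The ratio of CD74 to HLA-DRA was 55.7 and 224.5 in LacZ and 15.3 to 26.4 in the ARID1A-deficient samples.

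CIITA (chr16:10866222-10943021, plus strand), the coactivator of the pathway, had 166 and 150 estimated counts for LacZ, 280 and 217 for sg1, and 246 and 239 for sg5. The ARID1A-deficient samples all lay above LacZ. Replicates differed by less here than in HLA-DRA or CD74, with a fitted biological coefficient of variation of 17.3% against 40.7% and 27.2%. The log2 fold changes were 0.77 (SE 0.21) and 0.70 (SE 0.21), with adjusted p-values of 0.706 and 0.533 by edgeR and 0.138 and 0.156 by DESeq2. Joined, the change was 0.73 (SE 0.19), with an adjusted p of 0.349 by edgeR, while DESeq2 gave 0.74 and passed (adjusted p = 0.0319). On the TPM scale the difference was smaller, with 1.69 and 1.32 for LacZ, 1.95 and 1.86 for sg1, and 2.05 and 1.76 for sg5, and with an offset for transcript length the joined change was 0.38 (adjusted p = 0.767).

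CIITA counts came mostly from 2 transcripts that differed in pattern. CIITA-201, a protein-coding transcript (chr16:10877198-10936388), had 79.9 and 64.0 counts for LacZ, 188 and 130 for sg1, and 154 and 135 for sg5. CIITA-210, a processed transcript at chr16:10940719-10943021, had 75.4 and 80.6 counts for LacZ, 67.3 and 68.5 for sg1, and 64.9 and 76.3 for sg5. In counts the groups did not overlap for CIITA-201, whereas CIITA-210 overlapped between LacZ and sg5. In TPM, CIITA-201 had 0.207 and 0.169 for LacZ, 0.485 and 0.391 for sg1, and 0.439 and 0.345 for sg5, again without overlap. CIITA-210 had 0.917 and 1.004 TPM for LacZ, 0.813 and 0.966 for sg1, and 0.869 and 0.914 for sg5. On that scale it overlapped between LacZ and sg1 instead, and it weighed more in the gene sum than CIITA-201. CIITA-210 lies downstream of CIITA-201 and partly over DEXI on the opposite strand, so that its reads could belong to either gene where strand was not used. CIITA-201 spans part of DEXI and of AC133065.1 on the opposite strand and AC133065.3 on the same strand, so that the same limit holds for it there. When only protein-coding transcripts were summed, a setting chosen after seeing the data, the change of CIITA was 1.27 for sg1 and 1.16 for sg5, with adjusted p-values of 0.479 and 0.358.

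**Figure D3:**
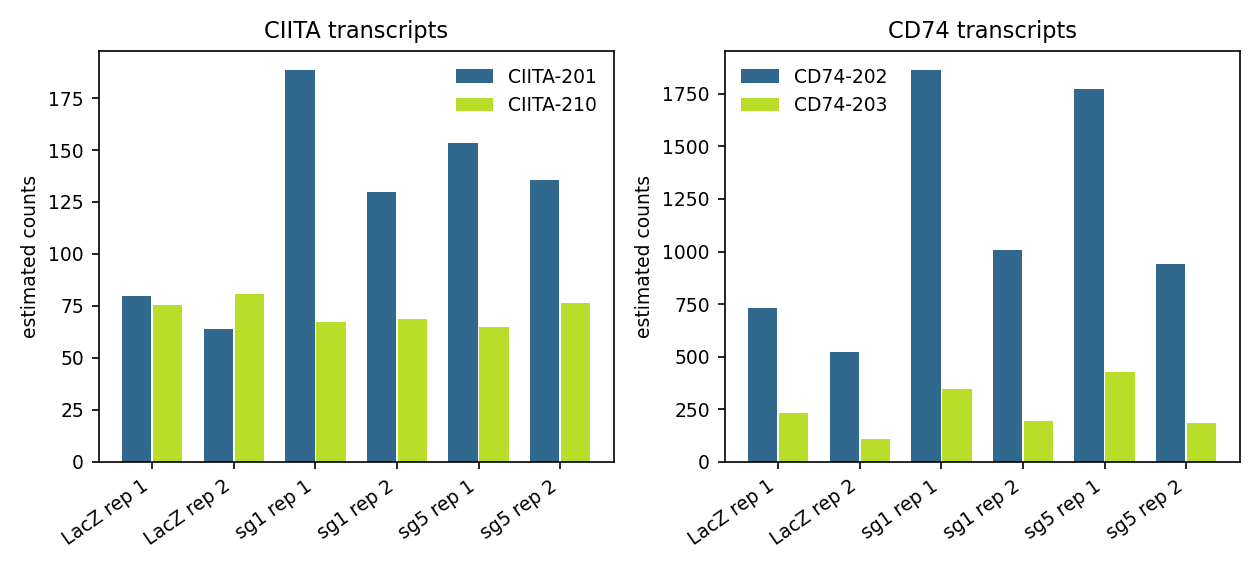
Estimated counts per sample of the 2 main transcripts of CIITA (left) and of CD74 (right), on linear axes from 0. CIITA-201 lies at or above 130 counts in every ARID1A-deficient sample against 79.9 and 64.0 in LacZ, while CIITA-210 stays between 64.9 and 80.6 throughout.

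Each sgRNA was then compared with LacZ across the 10 genes. With edgeR, 0 of the 8 tested genes passed an FDR of 0.1 in sg1, in sg5 or joined, where 0.0378%, 0.0972% and 0.167% of all 18514 genes did. At an unadjusted p under 0.05, 3 of 8 were higher in each comparison (HLA-DRA, CD74 and CIITA), against 1.86%, 2.95% and 2.89% of all genes. With DESeq2, 1 gene was higher at an FDR of 0.1 in sg1 and in sg5 (HLA-DRA) and 2 joined (HLA-DRA and CIITA), against 0.422%, 0.556% and 0.865% of the genes given an adjusted p. The 4 ARID1A-deficient samples lay above both LacZ samples for 4 of the 8 tested genes (HLA-DRA, HLA-DMB, CD74 and CIITA), as they did for 9.72% of all genes. HLA-DRA, HLA-DMB and HLA-DPB1 reached the filter on low counts only through ARID1A-deficient samples, so that they had to lie high there, and neither the counts over the 8 genes nor their median support a difference. The median log2 fold change of the 8 genes was 0.55 in sg1, 0.90 in sg5 and 0.79 joined, where that of all genes was 0.0022, -0.010 and -0.0071. Without the 2 samples that stood apart, each sgRNA was left with 1 sample. The spread then came from the LacZ pair alone and the lone samples were assumed to vary like it, so that calls of that fit are not counted here. The comparisons of sg1 and sg5 share the LacZ samples, so that like values in both are not separate evidence.

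**Figure D4:**
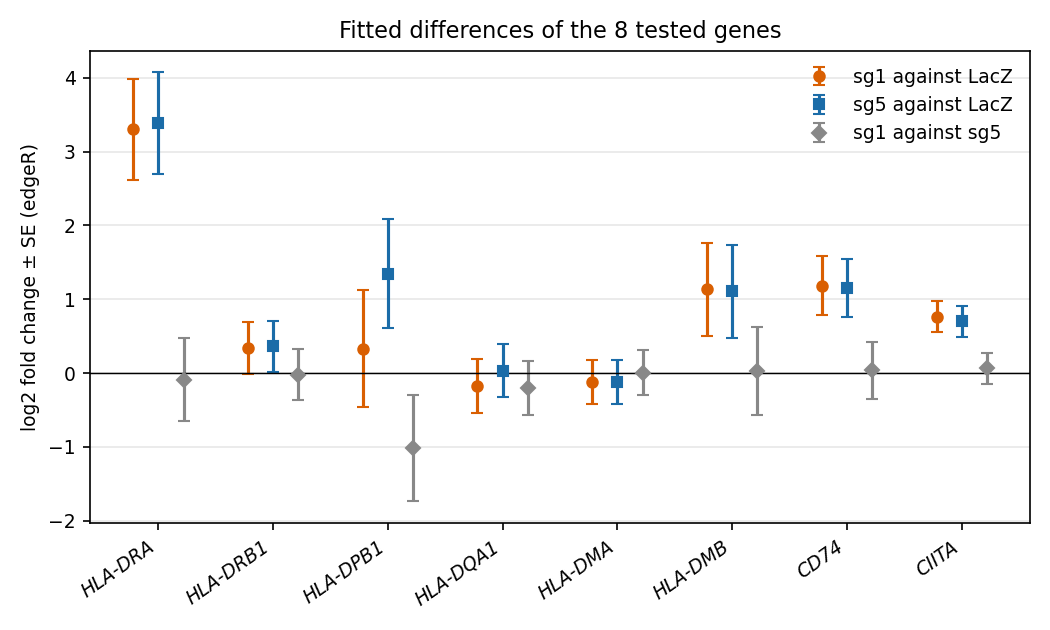
Log2 fold changes with standard errors of the 8 tested genes from the edgeR fit of all 6 samples, for sg1 against LacZ (orange circles), sg5 against LacZ (blue squares) and sg1 against sg5 (grey diamonds). HLA-DRA stands at 3.30 and 3.39 against LacZ, HLA-DPB1 at 0.33 and 1.35, HLA-DMB, CD74 and CIITA between 0.70 and 1.18, and no value passed an FDR of 0.1.

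The sgRNAs were also compared with each other. Between sg1 and sg5, 0 of 8 genes passed an FDR of 0.1 and 0 were higher at an unadjusted p under 0.05, where 0.0054% and 0.972% of all genes were, and DESeq2 called 0 of 8. HLA-DRA differed by -0.087 (SE 0.56), CD74 by 0.035 (SE 0.39) and CIITA by 0.064 (SE 0.21) on the log2 scale, and HLA-DPB1, the gene with the largest difference, by -1.02 (SE 0.72). Standard errors of this size leave room for differences that the test could not detect. Without the 2 samples that stood apart, CD74 was lower in sg1 than in sg5 by -0.74 (adjusted p = 0.0013), in a fit whose spread came from the LacZ pair alone.

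The factors that act on class II promoters gave no call. None of the 8 genes of the RFX, NF-Y and CREB factors passed in sg1, sg5 or joined with edgeR or DESeq2, 0 were at an unadjusted p under 0.05 with edgeR, and their median log2 fold changes were -0.055 in sg1 and 0.028 in sg5. RFX5, the DNA-binding subunit of RFX, had 52.0 to 68.4 TPM and log2 fold changes of 0.06 (SE 0.14) for sg1 and 0.08 (SE 0.14) for sg5. RFXAP and RFXANK, its partner subunits, had joined changes of -0.25 (SE 0.16) and -0.12 (SE 0.10). NFYC, a subunit of NF-Y, had 52.9 to 60.6 TPM. RFX5 and NFYC thus had over 50 TPM in cells where 9 of the 10 genes had means under 3 TPM.

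Genes known to induce or repress CIITA likewise gave 0 of 13 calls with edgeR and with DESeq2. IRF1, an activator of CIITA, had 25.5 to 32.3 TPM and fitted changes of 0.27 (SE 0.12) and 0.17 (SE 0.12), with adjusted p-values of 0.993 and 0.742. SPI1, the myeloid factor PU.1, had fitted changes of 0.06 (SE 0.13) and -0.11 (SE 0.13). IRF8, a myeloid and dendritic cell factor named here after its values were seen, was the 1 gene of this list at an unadjusted p under 0.05, in the joined comparison (0.32, adjusted p = 0.687). Of 13 interferon gamma response genes, 9 were tested, 0 passed with either tool and 0 were at an unadjusted p under 0.05. Their summed level was 695 and 740 CPM in LacZ and 426 to 762 in the ARID1A-deficient samples. Much of this range lay in WARS1, with 174 CPM in sg1 replicate 1 and 147 in sg5 replicate 2. In the other samples WARS1 had 337 to 384 CPM, so that the sum is not an even measure of the list. The median log2 fold changes of the tested genes were 0.0014 in sg1 and -0.30 in sg5.

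Further genes of antigen presentation gave no call either. Among the 7 further class II genes, HLA-DOA and HLA-DOB, which restrain HLA-DM, were the 2 tested, and neither passed or was at an unadjusted p under 0.05. HLA-DOB had 157 and 114 counts for LacZ, 93.1 and 84.1 for sg1, and 107 and 90.2 for sg5, and in CPM sg5 replicate 1 (2.28) lay just above LacZ replicate 2 (2.26), so that the groups overlapped (joined -0.43, SE 0.23, adjusted p = 0.742). Of 11 endosomal processing genes, 10 were tested and 0 passed. IFI30 and CTSV, named after their values were seen, were the 2 at an unadjusted p under 0.05 in sg1. IFI30, a thiol reductase of the antigen processing compartment, had 79.0 and 67.0 counts for LacZ, 151 and 101.5 for sg1, and 109 and 101 for sg5 (joined 0.75, SE 0.24, adjusted p = 0.505). The abundant proteases CTSC and CTSD had joined changes of 0.12 and -0.04. None of the 4 tested turnover and costimulation genes and none of the 4 class I genes passed or was at an unadjusted p under 0.05, with joined changes of 0.10 for HLA-B and 0.13 for B2M.

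**Figure D5:**
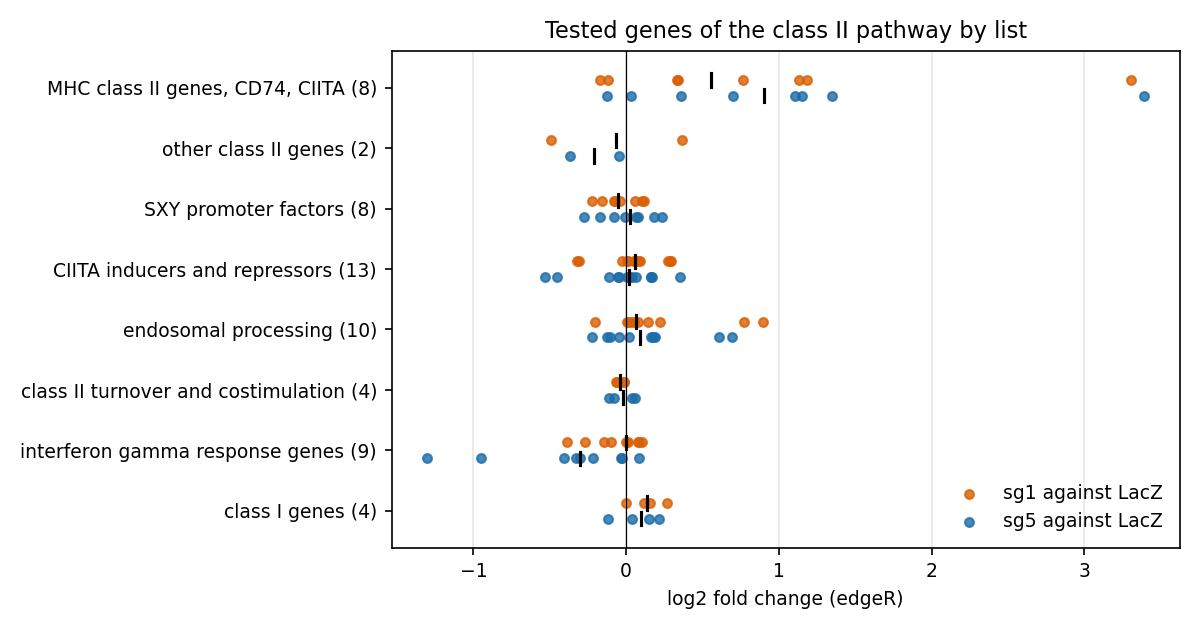
Log2 fold changes by edgeR of the tested genes of the class II pathway lists, without the cell type marker lists, with sg1 against LacZ in orange, sg5 against LacZ in blue, the number tested in parentheses and the median as a black bar. HLA-DRA lies above 3 in both comparisons, and the medians of the other 7 lists shown lie between -0.30 and 0.14.

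Markers of other cells that express class II genes were checked. For B cells, 4 of 7 markers were tested, and the summed level of all 7 was 28.5 to 29.7 CPM in LacZ and 32.5 to 41.7 in the ARID1A-deficient samples. CD79A, a chain of the B cell receptor complex, had 327 and 233 counts for LacZ, 551 and 436 for sg1, and 430 and 488 for sg5. It was higher in sg1 (0.93) and sg5 (0.80), a difference that passed with DESeq2 (adjusted p = 0.0081 and 0.0334) and not with edgeR (0.410 and 0.418). MS4A1, which encodes the B cell antigen CD20, was at 0 in LacZ and had 0 to 3 counts in the other groups. How these markers relate to the class II values of this cell line was not tested.

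For dendritic cells and monocytes, 6 of 10 markers were tested, 0 passed with either tool and 0 were at an unadjusted p under 0.05. The sum of all 10 was 67.3 to 86.5 CPM in LacZ and 48.9 to 74.2 in the ARID1A-deficient samples. As for HLA-DRA, it was higher in replicate 1 than in replicate 2 of each group, and its part in the class II values was not tested. FCER1A had 0 counts in every sample, and CD1C and CLEC9A had 0 to 7. T cell markers summed to 5.10 to 5.81 CPM in LacZ and 6.69 to 7.58 in the ARID1A-deficient samples, mostly from CD3D, and 2 of 4 were tested, with 0 called and 0 at an unadjusted p under 0.05. Of the promyelocyte markers, 4 of 5 were tested and 0 passed with edgeR, with 2 lower at an unadjusted p under 0.05, while with DESeq2 AZU1 and CTSG, proteins of the primary granule, passed as lower in sg5 and joined (joined -0.35 and -0.52 by edgeR, DESeq2 adjusted p-values 0.0337 and 0.0178). The part of this shift in the class II values was not tested.

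Other genes were ranked by the Pearson r of log2 CPM with the mean standardized level of the 8 tested genes. This was done over 6 samples and 13126 other genes that averaged 50 counts or more. Not all of the 8 genes followed that mean. In sg1 replicate 1 HLA-DMA was at -1.47 and the mean at 0.39, and in sg5 replicate 1 HLA-DQA1 was at -1.20 and the mean at 0.68. The genes with the highest r were CFLAR (r = 0.996), AC008736.1 (0.994), VPS4B (0.993), RSF1 (0.990) and THBS4 (0.987). These values rank 13126 genes over only 6 samples and are a description. The joined changes were small for CFLAR (0.18), VPS4B (0.14) and RSF1 (0.19), and 0.82 for THBS4, with adjusted p-values of 0.742, 0.766, 0.742 and 0.384 by edgeR.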

How the data were processed

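The authors quantified paired-end reads of TruSeq libraries per transcript. The tables they deposited held estimated counts, in which reads shared by transcripts are divided, and TPM scaled by effective length. Kallisto and hg19 are named in the submitters' processing notes, and the version used on these human reads and their transcript set are not given in the sources used here. Of 196354 transcripts, 181857 (92.62%) matched GENCODE 29 (GRCh38) by identifier and carried 95.44% to 95.53% of the counts. They were summed to 52992 genes and rounded. Gene coordinates are 1-based on GRCh38 from that match. HLA reads were counted against reference alleles, and reads lost to the alleles of NB4 cells were not measured.

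All 6 samples entered a single edgeR fit (version 4.0.16, R 4.3.3, TMM, filterByExpr with a minimum count of 10, robust quasi-likelihood F-test), with Benjamini-Hochberg adjustment over the 18514 genes tested and a threshold of 0.1. Standard errors were derived from the F statistic. DESeq2 (1.42.0) and limma (3.58.1, on log2 of TPM plus 0.1 or 1) were alternatives, and Python 3.11.15 was used for joins. The fitting was tested on simulated counts. The genes and lists were chosen with earlier results of these data known. All 10 genes were described, and of other lists those called, named regulators, at most 3 genes with the largest mean counts, and genes said to be named after their values were seen. Some genes that this rule names are not reported here.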

Additional observations from a re-analysis of the deposited data

How the results depend on the processing

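With edgeR 0, 0, 0 and 0 of 8 genes were called in sg1, sg5, joined and sg1 against sg5 (3, 3, 3 and 0 at an unadjusted p under 0.05). DESeq2 called 1, 1, 2 and 0, and the fit with no low-count filter called 2, 2, 2 and 0 (HLA-DRA and CD74). Leaving out replicates gave 0 to 2, 0 to 3, 0 to 3 and 0 to 1 calls, and 2 to 5 (sg5) and 0 to 2 (sg1 against sg5) genes at an unadjusted p under 0.05. The high ends came without sg1 replicate 1 and sg5 replicate 2 together, added after the data had been seen, where the spread came from the LacZ pair. With 1 replicate left out, a call was made in 1 case, HLA-DRA joined without sg1 replicate 2 (3.61, adjusted p = 0.0938).

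Over all genes, 7, 18, 31 and 1 were called. The counts were 116, 201, 264 and 5 with DESeq2, 345, 632, 701 and 86 with no low-count filter, 18, 29 and 0 with only the groups compared (sg1, sg5, sg1 against sg5), 1, 1, 4 and 0 with unmatched transcripts kept, 2, 5, 13 and 0 with protein-coding transcripts only, and 424, 787, 809 and 215 without the 2 samples. A mean of at least 50 counts gave 4 in sg1, 19 joined and 0 between sgRNAs, no robust estimation 17 joined, an FDR of 0.05 12 joined and 0 between sgRNAs, and the length offset 2 between sgRNAs. Leaving out 1 replicate gave 1 to 33, 0 to 78, 3 to 193 and 0 to 8.

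Same-numbered samples deviated from their group means with r of 0.07, 0.01 and -0.21 across genes. The 2 samples that stood apart, sg1 replicate 1 and sg5 replicate 2, have different numbers. The r therefore cannot show whether same-numbered samples shared an experiment. With the replicate block, 1, 1, 3 and 0 genes were called and 0 class II genes, and HLA-DRA changed by 3.46 joined (adjusted p = 0.173). The block with the length offset called 1, 1, 5 and 0. A crossed block, added later, called 59, 157, 194 and 2 genes, with 1 class II gene joined.

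With all samples, directions turned in differences that were below their SE in the single edgeR fit. HLA-DQA1 was at 0.49 (sg1), 0.27 (joined) and 0.44 (sg1 against sg5) with the length offset, alone or with the block. With the length offset alone, the values of 0.49 and 0.44 were above their SE of 0.39. HLA-DMA was at 0.34 (sg5), 0.16 (joined) and -0.36 (sg1 against sg5) with protein-coding transcripts only, and between sgRNAs at -0.0010 (DESeq2), -0.0008 (RLE factors) and -0.0013 (unmatched kept). Between sgRNAs CIITA was at -0.0084 (length offset) and -0.0068 (with block), and HLA-DRB1 at 0.013 (crossed block).

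Leaving out replicates gave -0.025 to 0.68 (HLA-DRB1, sg5), -0.37 to 1.82 (HLA-DPB1, sg1), -0.36 to 0.35 (HLA-DQA1, sg5), -0.31 to 0.088 (HLA-DQA1, joined), -0.34 to 0.086 (HLA-DMA, sg1), -0.25 to 0.0063 (HLA-DMA, sg5) and -0.22 to 0.046 (HLA-DMA, joined). Between sgRNAs it gave -1.21 to 0.41 (HLA-DRA), -0.66 to 0.36 (HLA-DRB1), -0.52 to 0.19 (HLA-DQA1), -0.22 to 0.19 (HLA-DMA), -0.27 to 0.35 (HLA-DMB), -0.74 to 0.64 (CD74, the lowest without the 2 samples, where it passed at an adjusted p of 0.0013) and -0.10 to 0.15 (CIITA). The cause of these changes was not tested. Counts of 131 or fewer per sample in 8 of the 10 genes, with 2 samples a group, limit the precision.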
